A study of Caenorhabditis elegans with 6 samples.

Results

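ctf-4 and tipn-1 are the nematode counterparts of a pair of proteins that travel with the DNA replication fork, and both were measured on arrays of sorted touch receptor neurons, cells that no longer divide once they are born. They are described here with F33H2.6, M116.5, K06A5.2, K06B9.4 and D2096.11. These 7 genes are the members of the study's cell cycle set of 80 genes that can be found through the current symbol or sequence name of a probe, among 7477 named genes and 22321 features in all. The study listed the set as the core of an enrichment among genes raised by 128Q, so these genes were selected on their values in 128Q over 19Q. Their values in that comparison are therefore given as a description, with no test.

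At the replication fork, a helicase opens the double strand, DNA polymerases copy both strands, and accessory proteins hold helicase and polymerases together. Ctf4, known in vertebrates as AND-1 or WDHD1, is a hub that in yeast joins the helicase to DNA polymerase alpha, the enzyme that starts each new stretch of DNA. TIPIN, the counterpart of tipn-1, works with Timeless and Claspin in a complex that in yeast and vertebrates keeps stalled forks stable and passes on the signal of the replication checkpoint. A neuron that has left the cell cycle does not copy its genome.

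The cells came from primary cultures of C. elegans embryos and were sorted by GFP fluorescence after a night in culture. Cells of the first group expressed an expanded N-terminal huntingtin fragment with 128 glutamines (128Q), cells of the second the same kind of fragment with 19 glutamines (19Q), and cells of the third GFP without huntingtin. The huntingtin fragments were fused to GFP, and all 3 transgenes were driven by the mec-3 promoter, which is active in touch receptor neurons and also in FLP and PVD neurons. The sorted pool can thus hold more than a single type of mec-3 cell. Each of 6 arrays compared 2 of these groups, with 3 arrays for 128Q over 19Q and as many for 19Q over GFP only, numbered as biological replicates 1 to 3. Values above 0 mean more RNA in the first-named cells, which carried Cy5 in the labels. No log base was stated, so values are log ratios in deposited units and are not turned into folds. In pools of sorted cells, fewer cells of a type and less RNA per cell cannot be told apart.

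The arrays differed in scale and in how well replicates matched. The SD over probes was 1 on 4 arrays and 0.783 and 0.81 on replicates 2 and 3 of 128Q over 19Q. Pairs of 128Q over 19Q arrays had an r across features of 0.538 to 0.677. For 19Q over GFP only, r was 0.744 between replicates 1 and 2, but 0.113 and 0.01 between these and replicate 3. Without 244 low unnamed probes, r was 0.68 to 0.762 for the first comparison, and 0.529, 0.21 and 0.0431 for the second. The means of the 7 genes in the second comparison are therefore also given without replicate 3, as are those of pold-1 and pole-4, which moved most among the other replication and repair genes. Of 48 marker genes of touch receptor neurons and 5 other classes of cells, 0 have a named probe, so the cell type could not be checked on these values. The study's own list of genes deregulated in 128Q over 19Q includes the touch receptor markers mec-7, mec-12, mec-17 and mec-18, all lower in 128Q cells. The intestine marker elt-2 and the neuron marker unc-25 are lower there too. Whether the pools differed in their make-up was not tested.

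ctf-4 (sequence name F17C11.10, chromosome V, 1 probe) was above 0 on every array of 128Q over 19Q. Its log ratios were 1.463, 0.649 and 1.041 in replicates 1 to 3, with a mean of 1.05 ± 0.41 (SD, n = 3). On these arrays it lay at percentiles 96.0, 86.8 and 92.6 of all features. On 2 of the 3 arrays it was the highest of the 7 genes.

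In 19Q cells set against GFP-only cells, ctf-4 lay near 0 or below it. Its log ratios were 0.049, -0.051 and -0.799 in replicates 1 to 3, with a mean of -0.27 ± 0.46 (SD, n = 3). The 95% interval of the mean, from the limma fit over all features, ran from -0.86 to 0.32, and the adjusted p was 0.547 (limma, Benjamini-Hochberg). The negative mean came from replicate 3, and without it the mean was -0.001, while it was -0.425 without replicate 1. Over 14 alternative settings the adjusted p ran from 0.401 to 0.998.

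tipn-1 (F23C8.9, chromosome I, 1 probe) was also above 0 on every array of 128Q over 19Q, with lower values than ctf-4. In 128Q over 19Q its log ratios were 0.974, 0.459 and 0.711, with a mean of 0.71 ± 0.26 (SD, n = 3), at percentiles 91.2, 81.7 and 86. As for ctf-4, replicate 1 was the highest and replicate 2 the lowest. Against GFP-only cells, 19Q cells had tipn-1 values of 0.285, -0.467 and -0.594, with a mean of -0.26 ± 0.48 (SD, n = 3), a 95% interval of -0.81 to 0.29 and an adjusted p of 0.531 (limma). Replicates 2 and 3 were below 0 and replicate 1 was above it. Without replicate 3 the mean was -0.091, without replicate 2 it was -0.154 and without replicate 1 it was -0.53, and over the alternative settings the adjusted p ran from 0.355 to 0.851.

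**Figure D1:**
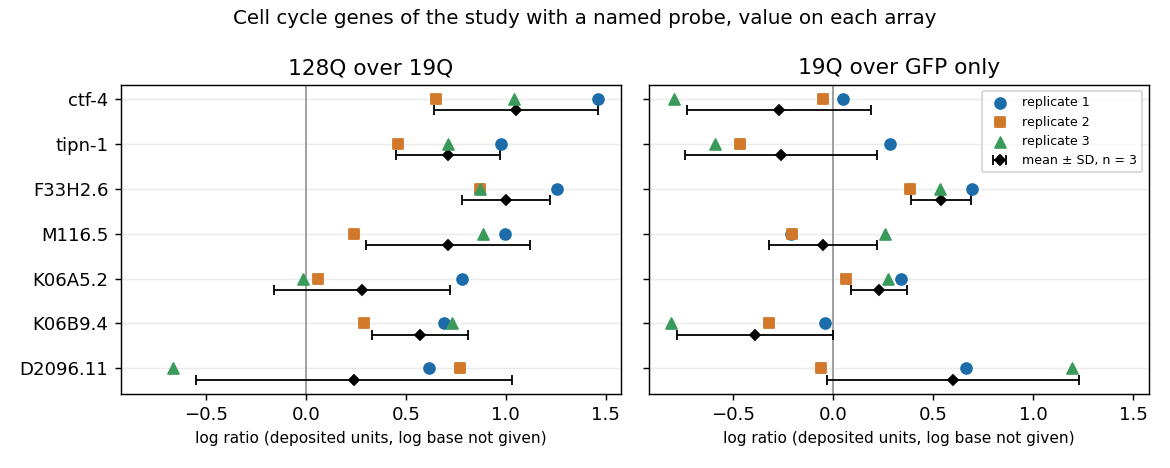
Log ratio in deposited units (horizontal axis) of the 7 genes on each of 3 arrays of 128Q over 19Q (left) and 3 arrays of 19Q over GFP only (right). Coloured symbols are single arrays and black diamonds with bars are the mean ± SD; ctf-4, tipn-1, F33H2.6, M116.5 and K06B9.4 lie above 0 on every array at left, while at right the 7 means run from -0.39 to 0.60.

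Among the other 5 genes, F33H2.6 was above 0 on all 6 arrays, as none of the other 6 genes was. The study's list pairs it with human FAM82B, a member of the regulator of microtubule dynamics family. Its log ratios were 1.254, 0.871 and 0.873 in 128Q over 19Q (mean 1.00 ± 0.22, SD, n = 3) and 0.692, 0.384 and 0.534 in 19Q over GFP only (mean 0.54 ± 0.15, SD, n = 3). For 19Q over GFP only its 95% interval was 0.10 to 0.97, with an unadjusted p of 0.0219 and an adjusted p of 0.183 (limma), so it did not pass the test at 0.01. Its mean there was 0.538 without replicate 3. Over 14 alternative settings its adjusted p ran from 0.158 to 0.433.

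M116.5 had log ratios of 0.998, 0.239 and 0.888 in 128Q over 19Q, with a mean of 0.71 ± 0.41 (SD, n = 3). Its values for 19Q over GFP only were -0.213, -0.209 and 0.260, with a mean of -0.05 ± 0.27 (SD, n = 3, adjusted p = 0.903 from limma). It was thus above 0 on all arrays of the first kind and on 1 array of the second, replicate 3, without which its mean was -0.211. The mean turned to 0.026 and 0.024 without replicate 1 and replicate 2.

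K06B9.4, which the gene table of the organism classes as a pseudogene, had 0.692, 0.290 and 0.732 in 128Q over 19Q, with a mean of 0.57 ± 0.24 (SD, n = 3). For 19Q over GFP only it was the single one of the 7 genes below 0 on all 3 arrays, with -0.043, -0.320 and -0.810 and a mean of -0.39 ± 0.39 (SD, n = 3, adjusted p = 0.32 from limma). Without replicate 3 the mean was -0.182. Of all features tested there, 13.3% were below 0 on all 3 arrays.

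K06A5.2 and D2096.11 had the smallest means and the largest SDs of the 7 in 128Q over 19Q. There K06A5.2 had 0.783, 0.063 and -0.016, with a mean of 0.28 ± 0.44 (SD, n = 3). That mean came from replicate 1, without which it was 0.024. It had 0.340, 0.065 and 0.271 in 19Q over GFP only, with a mean of 0.23 ± 0.14 (SD, n = 3) and a limma adjusted p of 0.556. The mean was 0.202 without replicate 3.

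D2096.11 spread the most. It had 0.617, 0.769 and -0.666 in 128Q over 19Q, with a mean of 0.24 ± 0.79 (SD, n = 3), which turned to -0.025 without replicate 2 and rose to 0.693 without replicate 3. Its SD was larger than that of 92.8% of features. It had 0.663, -0.064 and 1.192 in 19Q over GFP only, with a mean of 0.60 ± 0.63 (SD, n = 3) and a limma adjusted p of 0.347, and the mean was 0.300 without replicate 3.

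Over the 7 genes, 7 means of 128Q over 19Q were above 0, against 54.3% of all features, and 5 genes were above 0 on all 3 arrays, against 30.9% of all features. None was below 0 on all 3 arrays, as 25.7% of features were. These counts follow from how the genes were chosen and nothing is read from them. The median of the 7 means was 0.71, against 0.05 over all features, and the median SD was 0.41, against 0.29. The order of the means was ctf-4, F33H2.6, tipn-1 and M116.5, K06B9.4, K06A5.2 and D2096.11, and each differed from the next by less than the larger of their 2 SDs, except F33H2.6 from tipn-1.

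The comparison of 19Q with GFP only did not choose the genes. There limma called 0 of the 7 at an adjusted p below 0.01, against 0% of 21897 features, and 1 of 7 had an unadjusted p under 0.05, against 22% of features. The lowest limma adjusted p of any feature was 0.098, so the count of 0 is not particular to these 7. The study reported deregulated genes in this comparison with its own test, and none of them passed in the fit used here. Of the 7 means, 3 were above 0 and 4 below, where 57.7% of features had a mean above 0, and their median was -0.05 against 0.09 over all features. F33H2.6 and K06A5.2 were above 0 on all 3 arrays, as were 27.3% of features, but K06A5.2 was not once each array was centred on its median. Both comparisons contain RNA of 19Q cells, as the denominator of the first and the numerator of the second, so a low value of 19Q would raise a gene in the first and lower it in the second. For this reason the values of both are set side by side and were not correlated.

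The sum of both means is a rough, indirect value for 128Q over GFP only. The arrays differ in scale and the deposited values may have been rescaled array by array, so the sums are not on a single scale. The sum was 1.54 with a standard error of 0.26 for F33H2.6, 0.78 with 0.35 for ctf-4 and 0.46 with 0.33 for tipn-1. D2096.11, M116.5 and K06A5.2 had 0.84, 0.65 and 0.50, and K06B9.4 had the lowest sum, 0.18, with a standard error of 0.31. These sums contain the comparison that chose the genes and were not tested.

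Because the arrays differ in scale, the place of a gene among all features of an array is a second view of the same values. On replicate 1 of 128Q over 19Q the 7 genes lay between percentiles 83.0 and 96.0, on replicate 2 between 56.9 and 90.9, and on replicate 3 between 16.6 and 92.6. The lowest on replicate 3 were D2096.11 at 16.6 and K06A5.2 at 46.1. On the arrays of 19Q over GFP only the genes were scattered, from 27.2 to 86.7, from 17.7 to 67.7 and from 16.2 to 91.7. On replicate 2 of that comparison F33H2.6 was the only one of the 7 above the middle of the array.

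**Figure D2:**
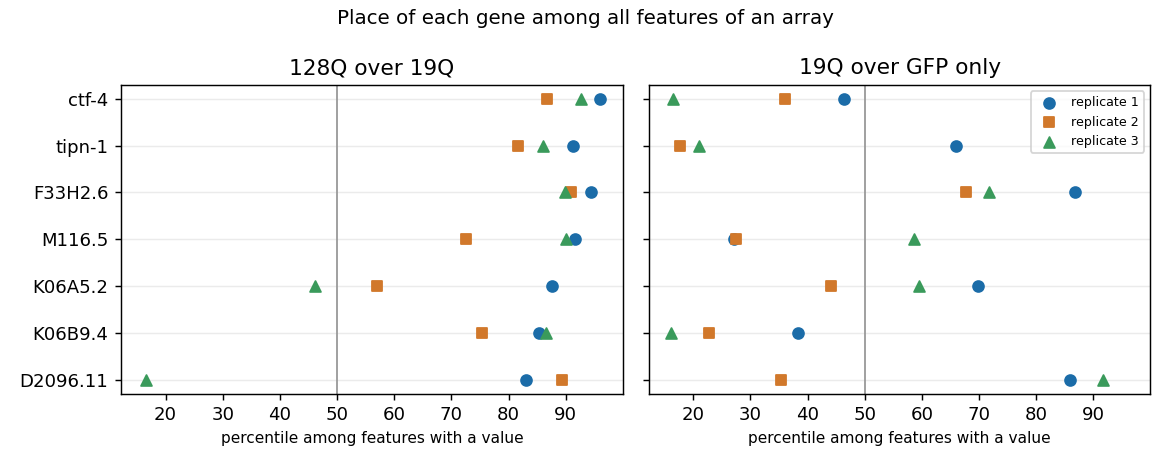
Percentile of each of the 7 genes among all features with a value on that array (horizontal axis), for 128Q over 19Q (left) and 19Q over GFP only (right), with a line at 50. At left ctf-4 sits at 86.8 or higher on every array, and at right it lies at 46.3, 36.1 and 16.4.

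The 7 genes are spread over 3 chromosomes, with 3 on I, 3 on IV and 1 on V, and 6 code for proteins. Of the 7477 named genes, 14.2% lie on chromosome I and 16.7% on chromosome IV. K06B9.4 is the exception in class, and pseudogenes make up 6.9% of named genes.

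Other genes of DNA replication were taken from a list of 76 genes drawn up by function, of which 7 beside ctf-4 and tipn-1 have a named probe. These are a small part of the list and need not stand for it, so the counts and medians hold for them only. For 128Q over 19Q, limma called 0 of these 7 at an adjusted p below 0.01, against 2.8% of all features (1.63% higher and 1.17% lower), and 3 had an unadjusted p under 0.05, against 25%. All 7 means were above 0, against 54.3% of all features, with a median of 0.64 against 0.05 over all features. Of these genes, 5 were above 0 on all 3 arrays, against 30.9% of features. For 19Q over GFP only, limma called 0 of them and 3 had an unadjusted p under 0.05, against 22% of features. There 6 of the 7 genes were above 0 on all 3 arrays, against 27.3%, and their median was 0.60 against 0.09 over all features.

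clsp-1, the Claspin gene whose product works in vertebrates with TIPIN, was above 0 on all 6 arrays. Its log ratios were 0.761, 0.743 and 1.497 in 128Q over 19Q, with a mean of 1.00 ± 0.43 (SD, n = 3) and a limma adjusted p of 0.04. They were 1.306, 1.001 and 0.644 in 19Q over GFP only, with a mean of 0.98 ± 0.33 (SD, n = 3, adjusted p = 0.133 from limma). Its lowest value there, 0.644, was higher than every value of ctf-4 and tipn-1 in that comparison.

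DNA polymerase delta, which copies the lagging strand, has its catalytic subunit in pold-1. This gene had 0.860, 0.709 and 0.886 in 128Q over 19Q, a mean of 0.82 ± 0.10 (SD, n = 3) with a limma adjusted p of 0.281. That p rests on a spread estimated over all 6 arrays, not on the SD of 0.10 alone. Over 14 alternative settings it ran from 0.0197, without replicate 3 of 19Q over GFP only, to 0.621. For 19Q over GFP only, pold-1 had 0.549, 1.042 and 2.869, with a mean of 1.49 ± 1.22 (SD, n = 3) and a limma adjusted p of 0.147. The mean was 0.796 without replicate 3, which was the highest array. All 6 values were above 0.

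DNA polymerase epsilon, which copies the leading strand, has small accessory subunits, and pole-3 and pole-4 are named for them. pole-3 averaged 0.64 ± 0.17 in 128Q over 19Q and 0.60 ± 0.17 in 19Q over GFP only (SD, n = 3), with limma adjusted p values of 0.0704 and 0.157. pole-4 had means of 0.48 ± 0.32 and 0.66 ± 0.71 (SD, n = 3) in the same order. Both were above 0 on all 6 arrays, although the mean of pole-4 in 19Q over GFP only was 0.248 without replicate 3.

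pola-1, for the catalytic subunit of DNA polymerase alpha, the partner of Ctf4 in yeast, stayed near 0 in 128Q over 19Q, with 0.435, -0.435 and 0.023 and a mean of 0.01 ± 0.44 (SD, n = 3). It had 0.244, 0.807 and 0.162 in 19Q over GFP only, with a mean of 0.40 ± 0.35 (SD, n = 3). Its 95% interval in 128Q over 19Q ran from -0.55 to 0.57.

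ctf-8 and dscc-1 are named for partners of Ctf18 in an alternative loader of the sliding clamp. ctf-8 differed most between arrays, with 0.772, -0.626 and 1.079 in 128Q over 19Q, and had the only negative mean of these 7 in 19Q over GFP only, -0.36 ± 0.38 (SD, n = 3). dscc-1 had 1.455, 0.174 and 0.510 in 128Q over 19Q and 0.285, 0.282 and 0.454 in 19Q over GFP only, all above 0.

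Of a list of 72 genes of the DNA damage checkpoint and repair, 3 have a named probe, and they too need not stand for their list. limma called 0 of them in either comparison, while 3 of 3 had an unadjusted p under 0.05 in both, against 25% of features for 128Q over 19Q and 22% for 19Q over GFP only. rmh-1, the counterpart of RMI1, a partner of the BLM helicase, had the smallest spread, at 0.97 ± 0.09 in 128Q over 19Q (SD, n = 3, limma adjusted p = 0.0235), and had 0.51 ± 0.31 (SD, n = 3) in the other comparison. csa-1, the counterpart of the Cockayne syndrome A gene of transcription-coupled repair, had 0.91 ± 0.12 and 1.18 ± 0.63 (SD, n = 3). rev-3, for the catalytic subunit of the translesion polymerase zeta, had 0.48 ± 0.19 and 0.65 ± 0.18 (SD, n = 3). All 3 genes were above 0 on every array of both comparisons. Of all features, 30.9% were above 0 on all 3 arrays of 128Q over 19Q and 27.3% on those of 19Q over GFP only. Whether ctf-4 and tipn-1 differ from these genes in 19Q over GFP only was not tested. The lists for cohesin and condensin, mitosis, cyclins and their kinases, and histones have 0 named probes.

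**Figure D3:**
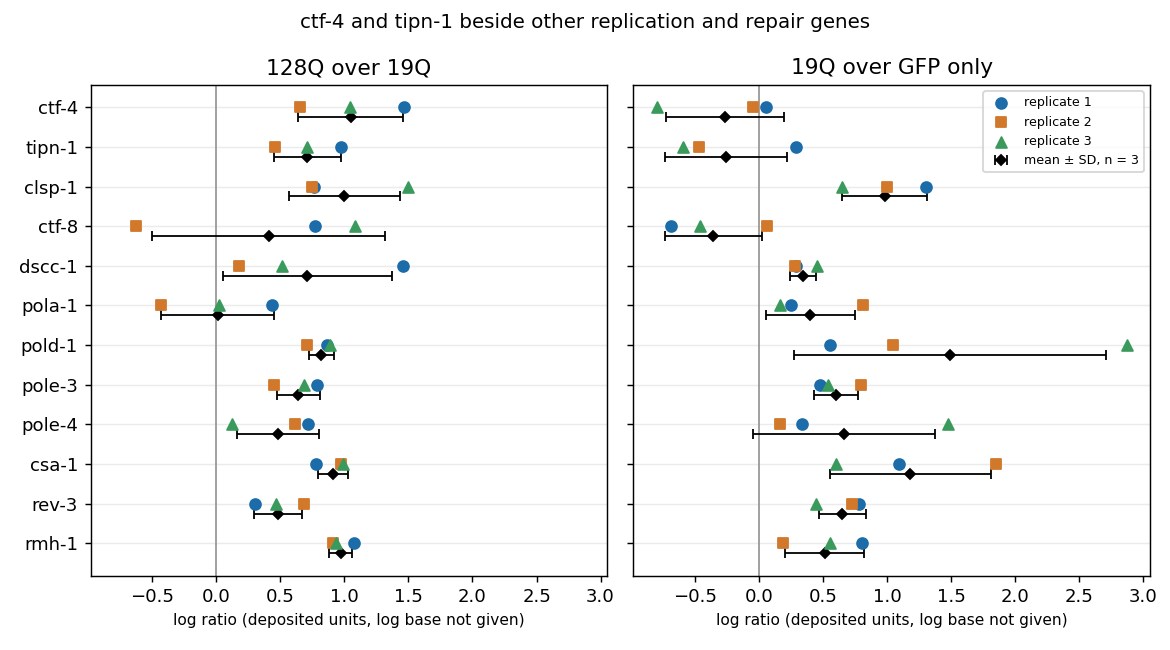
Log ratio in deposited units of ctf-4 and tipn-1 (top 2 rows), of 7 other replication genes and of 3 repair genes (bottom rows), with single arrays as coloured symbols and the mean ± SD in black. At right, for 19Q over GFP only, clsp-1, dscc-1, pola-1, pold-1, pole-3, pole-4, csa-1, rev-3 and rmh-1 lie above 0 on all 3 arrays, while ctf-4, tipn-1 and ctf-8 have means of -0.27, -0.26 and -0.36. Without replicate 3 the means of ctf-4, tipn-1 and ctf-8 are -0.001, -0.091 and -0.314.

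The genes most like ctf-4 and tipn-1 over all 6 arrays were found by the Euclidean distance between their 6 log ratios, among 7310 other named genes with a value on every array. This distance is a description, and since it contains the comparison that chose both genes it was not tested. tipn-1 stood at rank 16 from ctf-4, at a distance of 0.809 where the median gene stood at 2.404, and ctf-4 stood at rank 46 from tipn-1. K06B9.4 was nearer still to tipn-1, at a distance of 0.533 and rank 4, and was at rank 42 from ctf-4. D2096.11 was far from both, at ranks 4884 and 4720.

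The 5 genes outside the set that were closest to ctf-4 were slc-25A51, Y49E10.4, T22D1.5, hrg-9 and T05F1.2, at distances of 0.587 to 0.707. slc-25A51 is named for a carrier of the inner mitochondrial membrane and had 1.445, 0.622 and 0.817 in 128Q over 19Q and 0.009, 0.310 and -0.397 in 19Q over GFP only. hrg-9, a heme-responsive gene, had 1.150, 0.861 and 1.002, then 0.103, 0.428 and -0.971. All 5, like ctf-4, were at 0.327 or higher on each array of 128Q over 19Q and below 0 on replicate 3 of 19Q over GFP only. This follows largely from choosing them by these values.

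The 5 closest to tipn-1 outside the set were W05F2.3, T10E9.4, C04C11.1, ccdc-12 and F35C11.2, at distances of 0.485 to 0.565. T10E9.4 had 1.080, 0.446 and 0.607 in 128Q over 19Q and 0.292, -0.233 and -0.167 in 19Q over GFP only. All 5 were below 0 on replicates 2 and 3 of 19Q over GFP only, as tipn-1 was, which follows largely from choosing them by these values.

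**Figure D4:**
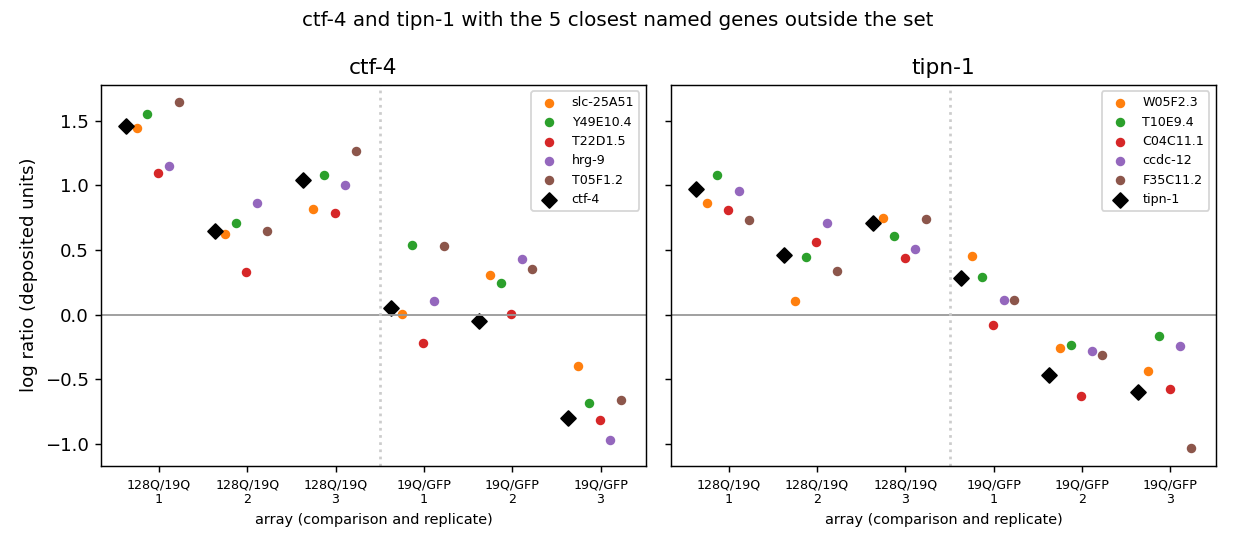
Log ratio in deposited units (vertical axis) of ctf-4 (left, black diamonds) and tipn-1 (right, black diamonds) on each of the 6 arrays, with the 5 closest named genes outside the set as coloured points. The 5 genes near ctf-4 lie within a distance of 0.707 of it and those near tipn-1 within 0.565.

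Because neighbouring genes of the nematode can share a promoter in an operon, the 2 protein-coding genes or pseudogenes on either side of each of the 7 genes were looked up in the gene table. Of these 28 neighbours, 11 have a named probe. In 19Q over GFP only limma called 0 of the 11, with an unadjusted p under 0.05 for 7, against 22% of features. For 128Q over 19Q, 3 of the 11 had one, against 25%. Beside ctf-4 the measured neighbour was pigt-1, named for a subunit of the enzyme that attaches GPI anchors, with 0.215, 0.636 and 0.437 in 128Q over 19Q and 0.712, 0.606 and 0.458 in 19Q over GFP only. It was thus above 0 in both comparisons, unlike ctf-4, and its mean of 0.59 ± 0.13 in 19Q over GFP only (SD, n = 3, adjusted p = 0.162 from limma) did not pass the test.

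The gene next to tipn-1, F23C8.8, had 0.609, 0.444 and 1.610 in 128Q over 19Q, a mean of 0.89 ± 0.63 (SD, n = 3, adjusted p = 0.116 from limma). Its values for 19Q over GFP only were 0.607, 0.031 and -0.419, with replicate 1 highest and replicate 3 lowest as for tipn-1. F23C8.7, a gene further, had 0.000, 0.030 and 0.225 in 128Q over 19Q. It had -0.107, -1.639 and 1.831 against GFP only, with replicate 3 highest.

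Near K06A5.2, uad-2 (K06A5.1) was the single one of the 11 neighbours that passed the test in 128Q over 19Q, against 2.8% of all features. It rose in 128Q cells, with 1.705, 1.225 and 1.705, a mean of 1.54 ± 0.28 (SD, n = 3) and a limma adjusted p of 0.00537. It had 0.851, 0.797 and 0.538 in 19Q over GFP only (mean 0.73 ± 0.17, SD, n = 3), with a limma adjusted p of 0.142. All 6 of its values were higher than the values of K06A5.2 on the same arrays. The call is lost when any 1 array of 128Q over 19Q is left out, with an adjusted p of 0.032 to 0.0548, and when replicate 1 or 2 of the other comparison is left out (0.0155 and 0.0119). It is also lost when 128Q over 19Q is fitted alone (0.012) and under a replicate block (0.0214). Over all alternatives the adjusted p ran from 0.00346 to 0.0548. K06A5.3, on the other side of K06A5.2, had a mean of 0.43 ± 0.17 in 128Q over 19Q (SD, n = 3). cdc-25.1, a phosphatase gene that drives entry into mitosis, overlaps K06A5.2 in the annotation and has no named probe. Whether the probe of K06A5.2 also detects its transcript was not tested.

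K06B9.4 overlaps K06B9.2, another pseudogene, in the annotation. K06B9.2 had 0.409, -0.178 and 0.323 in 128Q over 19Q and -0.197, -0.528 and -0.784 in 19Q over GFP only. On each of the 6 arrays it had the same sign as K06B9.4 except on replicate 2 of 128Q over 19Q, and in 19Q over GFP only replicate 3 was the lowest and replicate 1 the highest for both. Whether one probe detects transcripts of both was not tested.

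The neighbours of M116.5 and D2096.11 went other ways. M116.1 had a mean of 0.11 ± 0.32 and T26A8.3 of -0.32 ± 0.28 in 128Q over 19Q (SD, n = 3), with adjusted p values of 0.805 and 0.363 from limma, and T26A8.3 was below 0 on all 3 arrays where M116.5 was above it. Near D2096.11, nssp-44 had -0.164, -1.508 and -0.481 in 128Q over 19Q and 0.987, 1.472 and 0.260 in 19Q over GFP only. timm-17B.2, named for a translocase of the inner mitochondrial membrane, had means of 0.23 ± 0.28 and 0.89 ± 0.74 (SD, n = 3). D2096.10, which overlaps D2096.11 in the annotation, had 0.073, 0.227 and 0.258 in 128Q over 19Q and -0.881, -0.064 and -4.901 in 19Q over GFP only, so that its mean of -1.95 ± 2.59 (SD, n = 3) came mostly from replicate 3. Whether the probes of these overlapping genes detect each other's transcripts was not tested. The genes on both sides of F33H2.6 are pole-1, for the catalytic subunit of DNA polymerase epsilon, and dog-1, a helicase gene that protects tracts of guanines, and neither has a named probe.

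**Figure D5:**
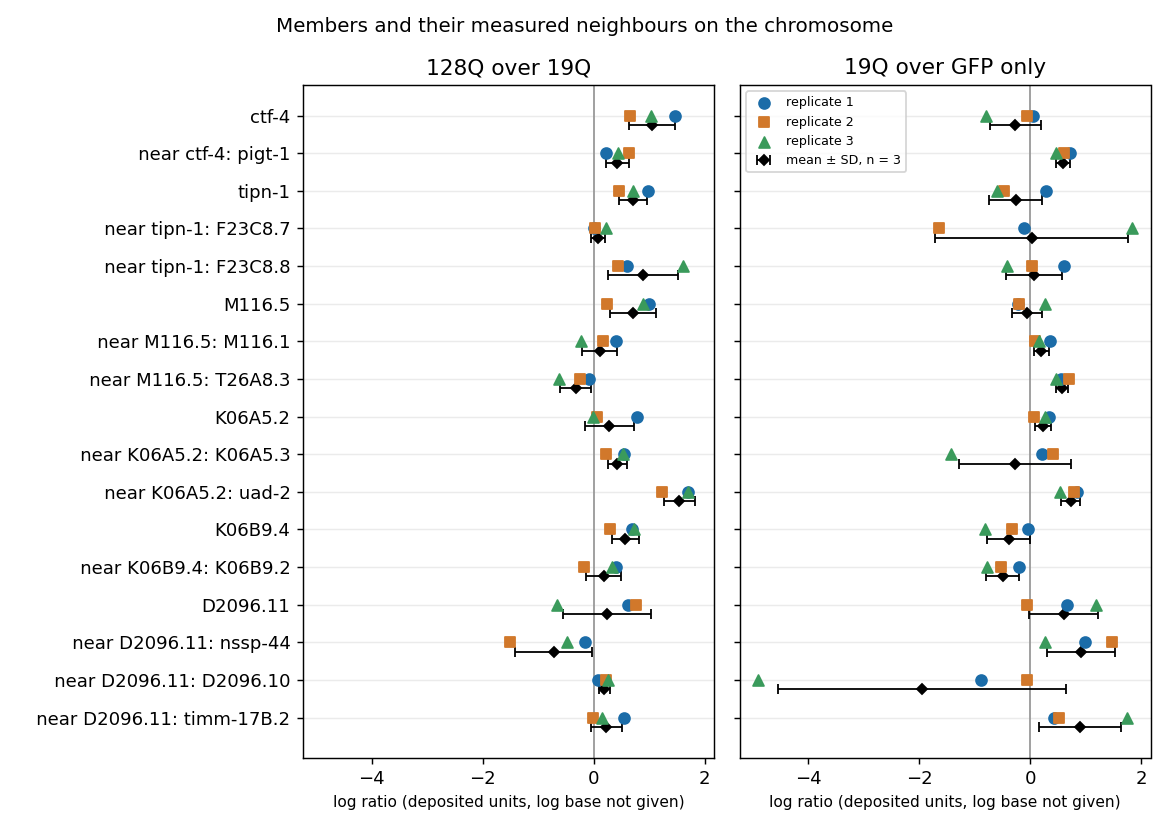
Log ratio in deposited units of 6 of the genes, each followed by its measured neighbours, with single arrays as coloured symbols and the mean ± SD in black. F33H2.6 is left out because none of its neighbours has a named probe; uad-2, near K06A5.2, has the highest values at left, from 1.225 to 1.705.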

How the data were processed

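RNA of sorted cells was amplified linearly by the authors, coupled to Cy dyes and hybridised to 2-colour Agilent arrays, which were scanned on a GenePix instrument. Their methods mention dye swaps and name VarMixt, with FDR control, for testing. The deposited values are scores, that is log ratios with a mean near 0 on each array. No source used here gives their log base, background correction, normalization or the merging of dye swaps. Signal over background is unknown, and the number of arrays limits the precision.

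Of 22562 probes, 7718 have 1 gene symbol, 0 several and 14844 none. Symbols were updated through a RefSeq gene table (WBcel235), which held 7691 of the named probes. Each of the 7 genes has 1 probe and a value on all 6 arrays. Probes of a gene were averaged, and limma 3.58.1 (R 4.3.3) took the place of VarMixt. A single model of the 6 arrays had a coefficient for each comparison and moderated variances (prior degrees of freedom 3.03). Benjamini-Hochberg adjustment ran over all features with 3 values, at a threshold of 0.01, and intervals are at 95%. The design had assumed ratios with no rescaling. The fit was tested on simulated data.

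By rule, the text names the 7 genes, all measured genes of a related list (or, above 6, the 3 highest and the 3 lowest in 128Q over 19Q), the 5 genes closest to ctf-4 and to tipn-1, and measured neighbours. Applied to the replication genes beside ctf-4 and tipn-1, the rule leaves out pole-3, which was added to complete its list after its values were seen. With ctf-4 and tipn-1 counted in that list, dscc-1 would fall outside the rule as well. The members and the lists were chosen with earlier results of these data known. The methods speak of independent experiments without saying whether cultures were separate, so p values measure the spread between these arrays. The fit pools that spread over both comparisons, so each p and interval also draws on the arrays of the other comparison. The median SD of features was 0.29 for 128Q over 19Q and 0.49 for 19Q over GFP only.

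Alternatives were a fit of each comparison alone, robust moderation (statmod 1.5.0), centring, scaling, unaveraged probes, features with 2 of 3 values, a looser threshold of 0.05, a replicate block, leaving out 244 low unnamed probes at even spacing, and leaving out each array. The promoter motif search of the design was not run.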

Additional observations from a re-analysis of the deposited data

How the results depend on the processing

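For 19Q over GFP only, 0 features and 0 of the 7 genes were called by limma at 0.01 under every setting tried, each left-out array included. The threshold of 0.05 was applied to the main fit alone, where it also called 0. Without replicate 3 of 19Q over GFP only, the lowest limma adjusted p of any feature was 0.0188, and csa-1 had 0.044. Under the replicate block the lowest was 0.0323. In the main fit, 4825 features and 1 of the 7 genes, F33H2.6, had an unadjusted p under 0.05. With the arrays centred, or centred and scaled, 1 of the 7 genes in place of 2 was above 0 on all 3 arrays. Leaving out each array gave 2 to 3 genes above 0 on the 2 arrays left, and 5 to 7 for 128Q over 19Q, a looser criterion than all 3 arrays. The median of the 7 means in 19Q over GFP only (-0.054) ran from -0.001 to 0.026, and turned positive without replicate 1 or 2; it was -0.159 with the arrays centred and -0.191 with scaling as well. The mean of M116.5 there ran from -0.211 to 0.026. For 128Q over 19Q the median of the 7 means ran from 0.564 to 0.842, and D2096.11 from -0.025 to 0.693. Of all features, 616 were called in 128Q over 19Q, but 0 without any 1 of its arrays, and 195, 347 and 1472 without replicates 1, 2 and 3 of 19Q over GFP only. For uad-2, the call was lost when 128Q over 19Q was fitted alone (adjusted p = 0.012). The causes were not tested. The deviations of arrays with the same replicate number correlated with r = 0.43, -0.13 and 0.335. These became -0.0383, -0.000412 and 0.00507 once the 244 low probes were left out, and no source says that the numbers pair the arrays. With the replicate number as a block, 0 of the 7 genes were called in 19Q over GFP only, the count for 128Q over 19Q went from 616 to 204, and the call of uad-2 was lost (adjusted p = 0.0214).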
